A study of Mus musculus with 12 samples.

Results

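The colony-stimulating factor 1 (CSF1) axis and macrophage identity were followed through 7 genes in gonadal white adipose tissue (GWAT) of mice lacking HOIP in adipocytes. These were the ligands Csf1 and Il34, their receptor Csf1r, the macrophage surface gene Adgre1, the transcription factor gene Spi1, and the receptor chains Csf2ra and Csf2rb for granulocyte-macrophage colony-stimulating factor (GM-CSF). Members were taken by gene symbol alone, and each symbol matched 1 of the 55281 genes in the count table. Csf2rb2, a near copy of Csf2rb, is given beside them.

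All mice were male, 22 to 24 weeks old, and carried floxed Hoip (Rnf31) alleles (Hoip fl/fl). HoipA-KO mice also carried AdipoQ.Cre, which is driven by adiponectin regulatory sequence and is active in mature adipocytes, so that other cells of the tissue kept HOIP. WT controls were Cre- littermates. From 6 weeks of age each genotype received control diet (CD, 14% fat in the labels) or high-fat diet (HFD, 60% fat) for 16 weeks. This gave 4 groups of 3 libraries, WT CD, WT HFD, HoipA-KO CD and HoipA-KO HFD, and GWAT of 3 mice was pooled for each library, so the spread below is that between pools.

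CSF1 and IL-34 are secreted ligands of the receptor tyrosine kinase CSF1R, which macrophages and their precursors need to survive, divide and differentiate. Csf1 is made by stromal cells, adipocytes and endothelium among others, whereas Csf1r, Adgre1 (encoding F4/80) and Spi1 (encoding PU.1) are read as genes of the macrophages themselves. The GM-CSF receptor pairs a ligand-specific alpha chain (Csf2ra) with a signalling beta chain (Csf2rb) that the IL-3 and IL-5 receptors also use. HOIP is the catalytic subunit of the linear ubiquitin chain assembly complex, which acts in signalling to NF-κB.

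Libraries held 30513500 to 60540260 counts, so that 3 counts, taken here as a floor for counting error, correspond to 0.0496 to 0.0983 CPM, the unit used below for counts scaled to the normalized size of a library. WT CD replicate 3 stood apart: 5141 genes were over 8 times higher there than in every other library, and they took 19.9% of its counts. WT CD replicate 2, which stayed in the fits, had 457 such genes with 6.84% of its counts. The summed level of 8 germ cell markers was 10839 CPM in replicate 3 and 445 CPM in replicate 2 of WT CD. That of 8 epididymis markers was 14987 CPM in WT CD replicate 2. Log2 levels of WT CD replicates 1 and 2 correlated at 0.871, against 0.946 to 0.982 within the other groups. The deposited comparisons leave WT CD replicate 3 out. It was likewise kept out of the fits here, its levels are printed, and calls of members that differ over all 12 libraries are given beside the result. Rnf31 itself was at 12.8 to 22.5 CPM and did not pass the test for genotype on CD (log2 fold change -0.08, adjusted p = 0.654) or on HFD (0.13, adjusted p = 0.491). A count over the whole gene in whole tissue includes the other cells and any undeleted exons, so it does not check the deletion.

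Sequence was looked at first, because it bears on how the members can be measured. Csf2rb (chr15:78325752-78353847, forward strand, GRCm38) and Csf2rb2 (chr15:78282507-78305721, reverse strand) lie side by side and are near copies. Their longest coding sequences, of 2688 and 2634 bases, were identical at 2503 of 2628 aligned bases (95.24%), with an unbroken identical run of 242 bases. Of all 100-base windows of the longest coding transcript, 6.96% in Csf2rb and 7.2% in Csf2rb2 occurred unchanged in the other gene. Csf1 and Il34, which bind the same receptor, shared no window of 50 bases. A 60-base stretch of 1 exon that is the same in both genes cannot assign a read (Csf2rb chr15:78338834-78338893 and Csf2rb2 chr15:78294438-78294497), and the 60 bases that follow, sharing 1 base with it and with mismatches in capitals, can (Csf2rb chr15:78338893-78338952 and Csf2rb2 chr15:78294379-78294438).
Csf2rb identical stretch: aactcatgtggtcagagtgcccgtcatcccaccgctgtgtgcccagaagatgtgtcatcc
Csf2rb2 identical stretch: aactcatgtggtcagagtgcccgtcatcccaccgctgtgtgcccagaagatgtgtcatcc
Csf2rb stretch with 13 mismatches: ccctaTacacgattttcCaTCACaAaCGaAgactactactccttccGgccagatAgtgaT
Csf2rb2 stretch with 13 mismatches: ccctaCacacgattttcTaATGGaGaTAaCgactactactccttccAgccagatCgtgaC
Estimated counts of these genes departed from whole numbers by over 0.01 in 11 of 12 libraries, by up to 0.426 for Csf2rb, whereas those of the other 6 members did not in any library. Salmon thus divided shared reads between the neighbours, and each of their values is less certain than those of the other members.

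RefSeq upstream sequence (GRCm38.p6) was at hand for Csf1, Csf2ra and Csf2rb2, and the 250 bases before each start are printed because NF-κB and PU.1 bind known motifs. The decamer NF-κB site of the immunoglobulin kappa enhancer and GAGGAA, the purine-rich box bound by PU.1, were searched on both strands and are in capitals. They do not overlap each other in these windows, but the pair of boxes in Csf2ra adjoin.
Csf1 (chr3:107760470-107760719, reverse strand): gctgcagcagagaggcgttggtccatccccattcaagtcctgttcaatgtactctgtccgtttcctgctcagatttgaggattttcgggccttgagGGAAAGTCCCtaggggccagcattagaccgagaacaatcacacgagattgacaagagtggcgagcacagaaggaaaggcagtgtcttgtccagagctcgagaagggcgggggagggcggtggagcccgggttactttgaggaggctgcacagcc
Csf2ra (chr19:61228419-61228668, reverse strand): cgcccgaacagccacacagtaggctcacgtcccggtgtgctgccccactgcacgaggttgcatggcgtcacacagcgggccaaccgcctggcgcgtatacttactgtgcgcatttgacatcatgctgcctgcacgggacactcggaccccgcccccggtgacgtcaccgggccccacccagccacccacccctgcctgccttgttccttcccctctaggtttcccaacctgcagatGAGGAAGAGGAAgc
Csf2rb2 (chr15:78305722-78305971, reverse strand): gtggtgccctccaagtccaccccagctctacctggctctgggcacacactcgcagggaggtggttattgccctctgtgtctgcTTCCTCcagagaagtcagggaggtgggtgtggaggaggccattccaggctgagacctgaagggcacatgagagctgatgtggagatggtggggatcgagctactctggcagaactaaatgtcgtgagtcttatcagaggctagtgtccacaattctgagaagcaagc
The NF-κB decamer stood in Csf1 at -154 on the opposite strand, and 0.14% of 32851 promoters held them in a window of this length. PU boxes stood in Csf2ra at -14 and -8 and in Csf2rb2 at -167 on the opposite strand, against 23.3% of promoters with at least 1. These positions count from the RefSeq start. GENCODE M21 starts Csf2ra at chr19:61228429, inside the printed window, and by that start both of its boxes overlap the gene. These are matches of letters and not sites shown to be bound.

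On CD, 6 of the 7 members were higher in HoipA-KO than in WT GWAT in the quasi-likelihood test of edgeR at 0.05, with Benjamini-Hochberg adjusted p-values over 18427 genes. The background was 18.9% of all genes tested that were called higher and 18.8% lower. The rises ran from 1.79-fold for Csf1 to 30.3-fold for Adgre1, and the member not called was Il34. All 6 were also called higher over 12 libraries, where the background was 15.6%. In bulk tissue more cells of a type and more RNA per cell cannot be told apart.

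**Figure D1:**
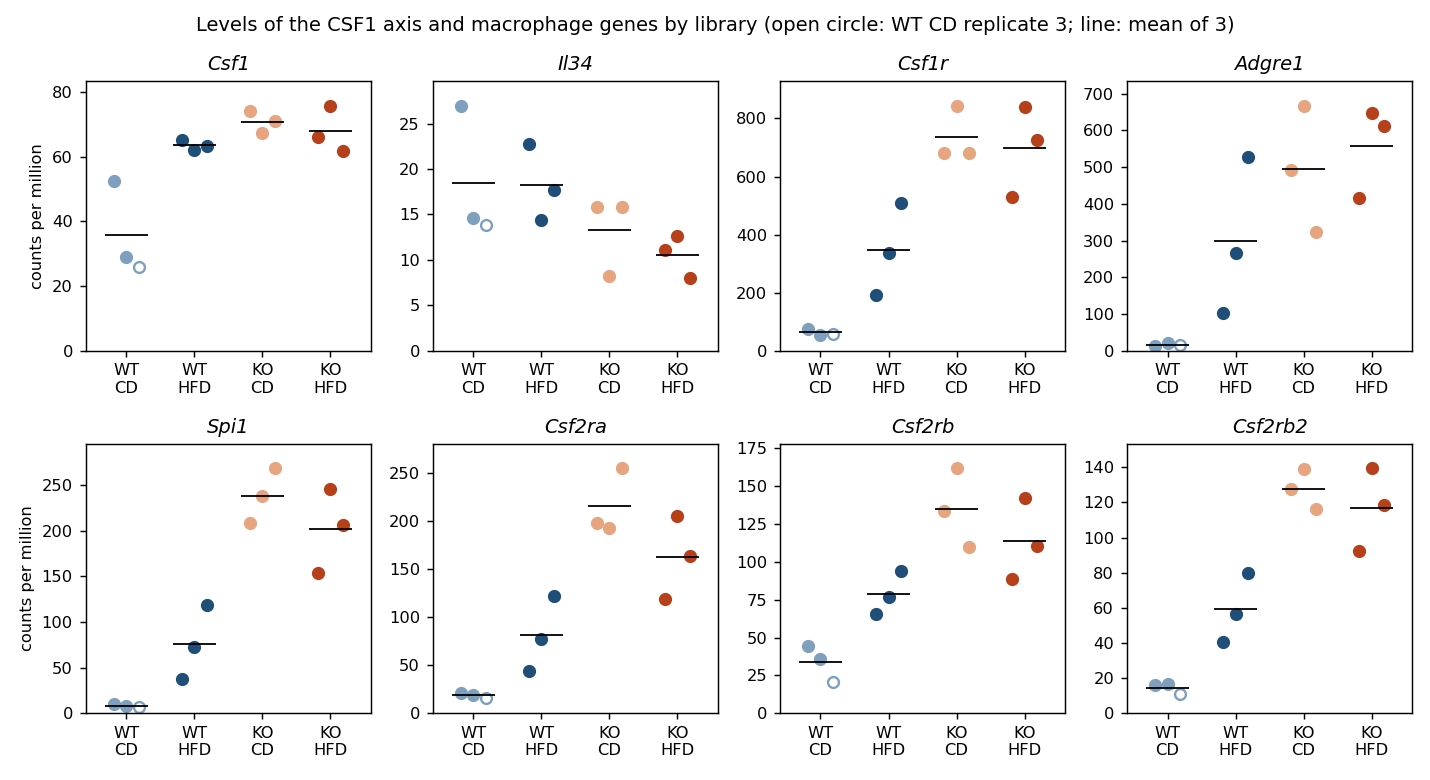
Level of each gene in CPM (vertical axis, from 0, own scale per panel) in the 12 libraries of the 4 groups, with a point per library, an open circle for WT CD replicate 3 and a line at the group mean. Csf1r, Adgre1, Spi1, Csf2ra, Csf2rb and Csf2rb2 were lowest in WT CD, intermediate in WT HFD and highest in both HoipA-KO groups by mean, Csf1 was low only in WT CD, and Il34 overlapped between neighbouring groups.

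The ligand genes came first in the analysis. Csf1 (chr3:107741048-107760469, reverse strand) was at 52.4, 28.9 and 25.8 CPM in WT CD replicates 1 to 3, at 65.3, 62.0 and 63.3 CPM in WT HFD, at 74.0, 67.3 and 71.0 CPM in HoipA-KO CD, and at 66.1, 75.8 and 61.8 CPM in HoipA-KO HFD. WT CD was below all other libraries without overlap, and the other groups lay close together, with a coefficient of variation between pools of 2.58% in WT HFD and 4.73% in HoipA-KO CD against 40.7% in WT CD. Between HoipA-KO and WT on CD Csf1 rose by 0.84 on the log2 scale (SE 0.22, 95% interval 0.35 to 1.34, adjusted p = 0.0153). Groups without overlap and higher in HoipA-KO were seen for 27% of all genes in this comparison. Without WT CD replicate 2, which leaves replicate 1 as the only WT CD library, the log2 difference was 0.48 with an adjusted p of 0.0512.

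Csf1 did not pass the test between WT HFD and WT CD (log2 fold change 0.66, SE 0.22, adjusted p = 0.0709), but did so over 12 libraries (0.83, adjusted p = 0.042). On HFD the genotypes gave a log2 difference of 0.11 (95% interval -0.32 to 0.55, adjusted p = 0.709), and HoipA-KO HFD against HoipA-KO CD gave -0.07 (95% interval -0.50 to 0.36). Among the groups other than WT CD, means of 63.5 ± 1.6, 70.8 ± 3.3 and 67.9 ± 7.2 CPM (SD, n = 3) followed the order WT HFD, HoipA-KO CD and HoipA-KO HFD, and HoipA-KO HFD overlapped with both.

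Il34 (chr8:110741829-110805924, reverse strand), the alternative ligand of CSF1R, was at 27.0, 14.6 and 13.8 CPM in WT CD and at 22.8, 14.4 and 17.7 CPM in WT HFD. HoipA-KO CD had 15.9, 8.25 and 15.8 CPM and HoipA-KO HFD 11.03, 12.6 and 7.95 CPM. The group means decreased from 18.5 ± 7.4 to 10.5 ± 2.4 CPM (SD, n = 3), and each neighbouring pair in the order WT CD, WT HFD, HoipA-KO CD and HoipA-KO HFD overlapped. No comparison called Il34: its log2 difference between genotypes was -0.61 on CD (95% interval -1.40 to 0.18, adjusted p = 0.196) and -0.78 on HFD (95% interval -1.50 to -0.06, adjusted p = 0.131), where the groups of 3 did not overlap (23.7% of all genes were likewise lower without overlap).

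The balance of the ligands is a quantity within each library, for which no test is given. The CPM of Csf1 divided by that of Il34 was 1.87 to 1.98 in the 3 WT CD libraries, replicate 3 included, and 2.86 to 4.31 with HFD in WT. HoipA-KO libraries had 4.51 to 8.16 on CD and 5.99 to 7.78 on HFD. WT CD thus varied less in this ratio than in either gene, and WT CD, WT HFD and the HoipA-KO groups did not overlap. Scaled to the length of the merged exons (5281 bases for Csf1 and 1959 for Il34), levels per kilobase were higher for Il34 in all 3 WT CD libraries, with a Csf1 to Il34 ratio of 0.693 to 0.734, and higher for Csf1 in the other 9. This scaling takes all annotated exons as the length, and the transcripts used in the tissue may be shorter.

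**Figure D2:**
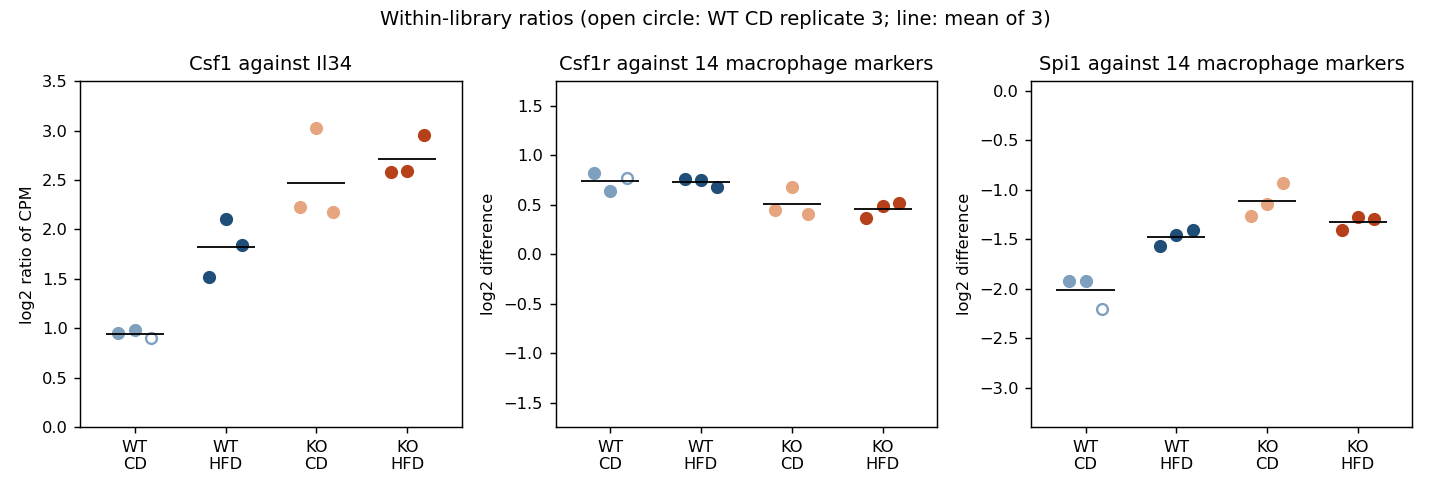
Log2 ratio within each library (vertical axis) of the CPM of Csf1 to that of Il34, and difference of log2(CPM + 1) of Csf1r or Spi1 from the mean of 14 macrophage markers, for the 4 groups, with a point per library, an open circle for WT CD replicate 3 and a line at the group mean. Csf1 against Il34 ran from 0.90 to 3.03, whereas Csf1r stayed 0.36 to 0.82 above the mean of the markers.

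The receptor gene Csf1r (chr18:61100598-61132149, forward strand) was at 75.2, 54.7 and 58.5 CPM in WT CD, at 193, 338 and 509.9 CPM in WT HFD, at 681, 845 and 682 CPM in HoipA-KO CD, and at 529, 839 and 725 CPM in HoipA-KO HFD. Every HoipA-KO library was above every WT library, and the share of all genes with this order was not counted. Csf1r rose by 3.55 on the log2 scale in HoipA-KO on CD (SE 0.44, adjusted p = 0.000565), or 11.7-fold. It rose by 2.43 with HFD in WT (SE 0.41, adjusted p = 0.0076). On HFD the genotype difference of 1.03 (SE 0.34, adjusted p = 0.0736) was not called, although the groups did not overlap, as for 20.6% of all genes.

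Set against the mean of 14 macrophage markers of the same library, Csf1r moved little. The difference between log2(CPM + 1) of Csf1r and the mean of 14 macrophage markers (Cd68, Cd14, Lyz2, Fcgr1, Mertk, Itgam, C1qa, C1qb, C1qc, Lgals3, Ctss, Aif1, Mpeg1 and Laptm5) spanned 0.46 log2 units over the 12 libraries, while Csf1r itself spanned 3.92. In WT the difference was 0.74 ± 0.10 on CD and 0.73 ± 0.04 on HFD, and in HoipA-KO 0.51 ± 0.15 on CD and 0.46 ± 0.08 on HFD (SD, n = 3). The same difference spanned 0.98 for Csf2ra, 1.28 for Spi1, 2.28 for Adgre1, 2.30 for Csf2rb, 3.32 for Csf1 and 5.21 for Il34. Receptor and ligand therefore changed by unequal amounts, and the CPM of Csf1r divided by that of Csf1 was 1.43 to 2.27 on CD and 2.95 to 8.05 on HFD for WT, and 9.21 to 12.5 on CD and 7.99 to 11.7 on HFD for HoipA-KO.

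Adgre1 (chr17:57358691-57483527, forward strand) was the member with the widest range. It was at 13.6, 20.1 and 14.3 CPM in WT CD, at 102, 266 and 526 CPM in WT HFD, at 492, 668 and 324 CPM in HoipA-KO CD and at 416, 646 and 613 CPM in HoipA-KO HFD. The WT CD libraries were below all others, and WT HFD overlapped with both HoipA-KO groups because its replicate 3 was as high as they were. Over 11 libraries, 27% of all genes were higher without overlap in HoipA-KO on CD, and 23.9% with HFD in WT. Adgre1 rose by 4.92 on the log2 scale in HoipA-KO on CD (SE 0.72, adjusted p = 0.00102) and by 4.16 with HFD in WT (SE 0.69, adjusted p = 0.00725). On HFD the genotype difference was 0.93 (95% interval -0.22 to 2.08, adjusted p = 0.244).

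Spi1 (chr2:91082390-91115756, forward strand) encodes the factor PU.1, which myeloid cells need for Csf1r transcription. It was at 10.4, 8.49 and 6.57 CPM in WT CD, at 37.8, 72.2 and 119 CPM in WT HFD, at 209, 238 and 269 CPM in HoipA-KO CD, and at 154, 246 and 206 CPM in HoipA-KO HFD. All HoipA-KO libraries were above all WT libraries, as for Csf1r, and the share of all genes with this order was not counted. Over 11 libraries, 27% of all genes were higher without overlap in HoipA-KO on CD and 20.6% on HFD. Spi1 rose by 4.70 on the log2 scale in HoipA-KO on CD (SE 0.50, adjusted p = 0.000452), which is 26.1-fold, and by 3.03 with HFD in WT (SE 0.45, adjusted p = 0.00633).

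Spi1 rose more than Csf1r, so that the CPM ratio of Csf1r to Spi1 went from 6.45 to 8.91 in WT CD libraries down to 4.28 to 5.10 with HFD in WT. It was 2.54 to 3.55 for HoipA-KO mice on CD and 3.41 to 3.52 for those on HFD. Neither HoipA-KO group overlapped with a WT group in this ratio. Relative to the macrophage markers Spi1 was at -2.02 ± 0.17 in WT CD and -1.11 ± 0.17 in HoipA-KO CD (log2, SD, n = 3).

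Spi1 was the single member called between genotypes on HFD, with a rise of 1.42 (SE 0.36, 95% interval 0.62 to 2.23, adjusted p = 0.0367), beside 4.2% of all genes called higher and 7.62% lower. Over 12 libraries its adjusted p was 0.0658 and no member was called, with a background of 0.531%. The count was also 0 without WT HFD replicate 1 or 2, any HoipA-KO CD replicate, or HoipA-KO HFD replicate 2 or 3, and it was 3 if WT HFD replicate 3 was the one left out. Scaling by library size alone called 3 members, and moved the share of all called genes that were higher in HoipA-KO on HFD from 35.5% to 53%. The intervals of Csf1r, Csf2ra (1.02, adjusted p = 0.0741) and Csf2rb (0.55, adjusted p = 0.136) lay above 0 as well.

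**Figure D3:**
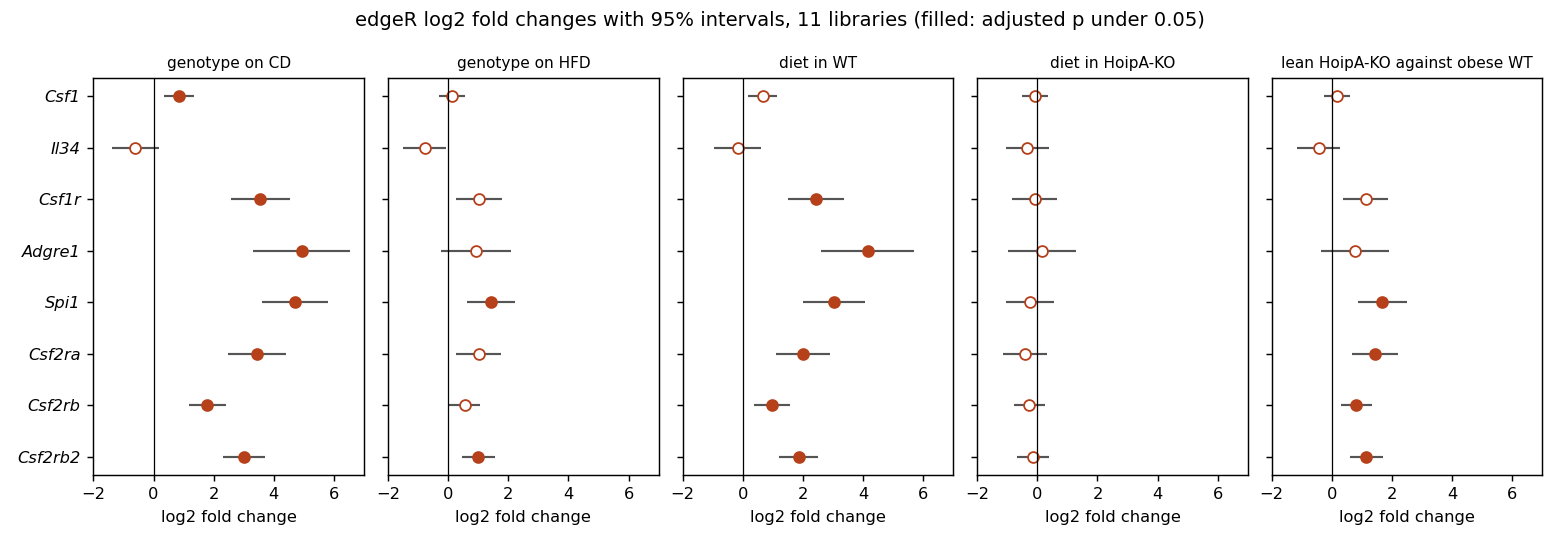
Log2 fold change (horizontal axis) with its 95% interval for the 8 genes in 5 comparisons of the 11 libraries, with a filled point for an adjusted p under 0.05. Rises were largest in genotype on CD, followed by diet in WT, and the diet comparison in HoipA-KO lay between -0.41 and 0.16 with no call.

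The GM-CSF receptor genes also rose in HoipA-KO on CD and with HFD in WT, by less than Csf1r, Adgre1 and Spi1 in fold change. Csf2ra (chr19:61223957-61228429, reverse strand), the alpha chain, was at 21.4, 19.6 and 15.6 CPM in WT CD, at 44.6, 77.3 and 122 CPM in WT HFD, at 198, 193 and 255 CPM in HoipA-KO CD, and at 119, 205 and 164 CPM in HoipA-KO HFD. HoipA-KO CD was above all WT libraries, whereas HoipA-KO HFD overlapped with WT HFD through its replicate 1. Csf2ra rose by 3.44 on the log2 scale in HoipA-KO on CD (SE 0.43, adjusted p = 0.000591) and by 2.00 with HFD in WT (SE 0.40, adjusted p = 0.0131).

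Csf2rb, the shared beta chain, was at 44.7, 36.1 and 20.4 CPM in WT CD, at 65.8, 76.6 and 93.8 CPM in WT HFD, at 133, 162 and 109.8 CPM in HoipA-KO CD, and at 88.5, 142 and 111 CPM in HoipA-KO HFD. HoipA-KO CD lay above both WT groups, and HoipA-KO HFD reached into WT HFD. The log2 rise in HoipA-KO on CD was 1.79 (SE 0.27, adjusted p = 0.00125), or 3.45-fold. With HFD in WT Csf2rb rose by 0.98 (SE 0.27, adjusted p = 0.0379).

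The neighbour Csf2rb2, whose product takes part in the IL-3 receptor, was at 16.2, 16.7 and 11.2 CPM in WT CD, at 40.8, 56.7 and 79.9 CPM in WT HFD, at 128, 139 and 116 CPM in HoipA-KO CD, and at 92.4, 139 and 118 CPM in HoipA-KO HFD. It rose by 3.00 (SE 0.31, adjusted p = 0.000452) in HoipA-KO on CD. The CPM of Csf2rb divided by that of Csf2rb2 was 1.82 to 2.77 on CD and 1.17 to 1.61 on HFD for WT, against 0.946 to 1.16 on CD and 0.935 to 1.02 on HFD for HoipA-KO. Per kilobase of merged exons (7277 bases for Csf2rb and 4740 for Csf2rb2), Csf2rb was higher in all 3 WT CD libraries. Csf2rb2 was higher by this scale in all 6 HoipA-KO libraries. The transcript with the longest coding sequence has 4900 bases for Csf2rb and 4740 for Csf2rb2, so the order in HoipA-KO depends on the length taken. With the counts of both genes summed, the log2 rise on CD was 2.25 (adjusted p = 0.000582). How far the division of shared reads moves the ratio was not tested.

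**Figure D4:**
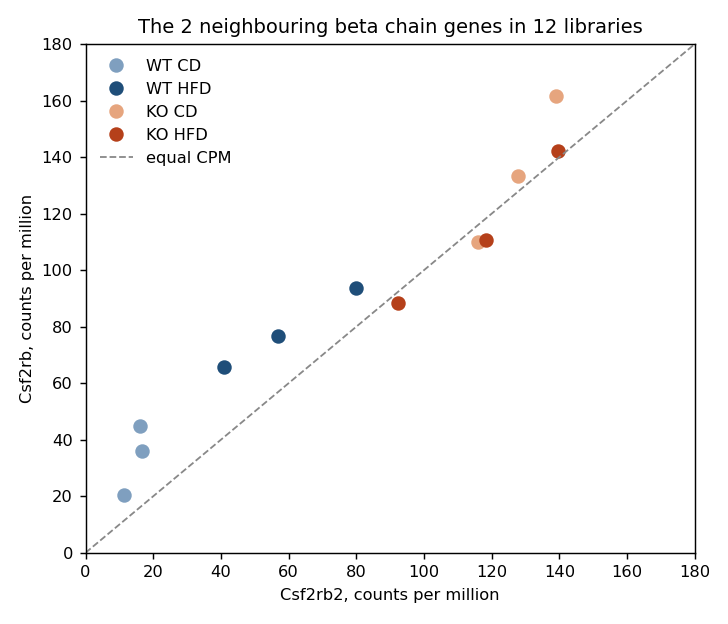
CPM of Csf2rb (vertical axis) against that of Csf2rb2 (horizontal axis) in the 12 libraries, coloured by group, with a dashed line where both are equal. WT libraries lie above the line and the HoipA-KO libraries close to it.

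With HFD in WT, 5 of 7 members rose (Csf1r, Adgre1, Spi1, Csf2ra and Csf2rb), beside 9.35% of all genes called higher and 5.47% lower. The groups did not overlap for these 5 and for Csf1, as for 23.9% of all genes. Over 12 libraries Csf1 was called as well, with a background of 9.05%. This comparison shares the WT CD libraries with genotype on CD, so the rises are not independent of those above. A fit of only these 5 WT libraries called none of the members and none of 17200 genes, with adjusted p of 0.0861 to 0.0962 for these 5. Without WT CD replicate 2, 3 members were called, the adjusted p being 0.0724 for Csf2ra, and Csf2rb was also not called without WT HFD replicate 2 or 3, HoipA-KO CD replicate 1 or HoipA-KO HFD replicate 3 (adjusted p up to 0.186 over these fits). Scaling by library size alone moved the share of all called genes that were higher with HFD in WT from 63.1% to 75.7%, and called Csf1 as well. WT HFD was the most variable group for Csf1r, Adgre1, Spi1 and Csf2ra and the least variable for Csf2rb (17.9%). The coefficient of variation between pools was 45.8% for Csf1r, 71.8% for Adgre1, 53.5% for Spi1 and 48% for Csf2ra, and for each of these 4, as for the macrophage marker sum of 3048, 5613 and 9369 CPM, replicate 1 was the lowest and replicate 3 the highest.

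Diet in HoipA-KO called none of the members and none of 18427 genes (0% background) by edgeR, although 415 genes had an unadjusted p under 0.05 and DESeq2's Wald test called 7 genes higher. Log2 differences of the members lay between -0.41 for Csf2ra (95% interval -1.16 to 0.33) and 0.16 for Adgre1 (95% interval -0.98 to 1.298), and the libraries of both diets overlapped for every member.

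HoipA-KO mice on CD were set against WT mice on HFD. Spi1 (log2 rise 1.67, SE 0.36, adjusted p = 0.0188), Csf2ra (1.43, SE 0.34, adjusted p = 0.0239) and Csf2rb (0.81, SE 0.23, adjusted p = 0.0426) were higher in HoipA-KO CD, beside 6.78% of all genes. Groups without overlap, as for these genes, Csf1 and Csf1r, were seen for 22.2% of all genes. Csf1r was 1.12 higher with an adjusted p of 0.0508. Apart from fits that each left out a library, it was called under 7 alternatives (adjusted p of 0.00433 to 0.0462). These include the fit of only the 2 groups compared, which lacks the libraries of the other groups. Adgre1 was 0.77 higher (95% interval -0.38 to 1.91). Over 12 libraries Spi1 and Csf2ra were called and Csf2rb was not (adjusted p = 0.142), with a background of 1.71%. The count was 0 when WT HFD replicate 2 or any HoipA-KO CD replicate was left out, 1 without WT HFD replicate 1, and 2 if HoipA-KO HFD replicate 3 was left out.

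The genotype effect differed between diets for 4 members, beside 3.58% of all genes with a lower effect on HFD than on CD. The difference, on the log2 scale, was -2.52 for Csf1r (SE 0.52, adjusted p = 0.0337), -4.00 for Adgre1 (SE 0.82, adjusted p = 0.0331), -3.28 for Spi1 (SE 0.56, adjusted p = 0.0256) and -2.42 for Csf2ra (SE 0.52, adjusted p = 0.0379). Csf2rb (-1.24, adjusted p = 0.0834), Csf1 (-0.73, adjusted p = 0.175) and Il34 (-0.17, adjusted p = 0.867) did not pass. The call rested on many libraries: the count of members was 0 without WT CD replicate 2, WT HFD replicate 2, any HoipA-KO CD replicate, or HoipA-KO HFD replicate 1 or 3, it was 1 without WT HFD replicate 3, and it was 6 without WT CD replicate 1.

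The pathway around the members was read through 3 lists. On CD 18.9% of all genes were called higher and 18.8% lower, and 15.6% were higher over 12 libraries. Of 14 other genes of the colony-stimulating factor family and its receptors, 11 were tested and 5 rose in HoipA-KO on CD, with none lower and a median log2 fold change of 1.49 against -0.06 over all genes. The largest rises were those of Sdc1 (3.24, SE 0.41), a proteoglycan of the cell surface that was also the most abundant of the list, and Csf2rb2. Kitl, the ligand of KIT, was abundant and had a log2 difference of 0.43 (adjusted p = 0.305). Csf2, Il3 and Il5, which encode the ligands of the beta chain receptors and are named here after their values were seen, were too low to test. Csf2 had a mean of 0.0143 CPM in WT CD and 0.078 CPM in HoipA-KO CD, near the floor, and Il3 had no count in any library. Over 12 libraries 4 of the 10 genes tested were higher.

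Of 22 genes of CSF1R signalling, 16 rose and 2 fell in HoipA-KO on CD (median 2.21). The falls were a smaller share than the 18.8% of all genes called lower. Tyrobp, the adaptor that couples to immunoreceptors and acts with CSF1R, had the largest rise (5.04, SE 0.57, adjusted p = 0.000493) and the highest mean level of the list, 380 CPM over the 12 libraries. The adaptor gene Grb2, which most cells express, rose by 1.39 (SE 0.24). The falls were those of Pik3r1, encoding a regulatory subunit of phosphoinositide 3-kinase (-1.16, SE 0.31, adjusted p = 0.0169), and Stat5a (-0.88, SE 0.10, adjusted p = 0.000515), and neither passed over 12 libraries (adjusted p = 0.074 and 0.177), where 13 of the 22 genes rose.

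Of 18 transcription factors of macrophages, 11 rose and 1 fell (median 1.377), and over 12 libraries 10 rose and none fell. Tfec rose by 4.89 (SE 0.56) and Irf5, a factor of inflammatory macrophages, by 3.95 (SE 0.40). The fall was that of Cebpa, which adipocytes also express (-1.24, SE 0.37, adjusted p = 0.0265, and 0.118 over 12 libraries). On HFD the numbers of genes higher and lower in HoipA-KO were 4 and 0 of 11 in the first list, 3 and 1 of 22 in the second and 2 and 0 of 18 in the third, and over 12 libraries 1 and 0 in each. Of all genes 4.2% were higher and 7.62% lower on HFD, and 0.531% were higher over 12 libraries. With HFD in WT the numbers were 5 and 0, 10 and 1, and 6 and 0, beside 9.35% and 5.47% of all genes, and over 12 libraries 3 of 10, 11 of 22 and 9 of 18 genes were higher and none lower.

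Cell markers moved with the members. Of the 14 macrophage markers, 13 rose in HoipA-KO on CD (median 4.14, and 12 over 12 libraries), 9 on HFD (1.33) and 12 with HFD in WT (2.78), and none fell. On HFD none of the 14 was called over 12 libraries. Their summed level was 771 to 1037 CPM on CD and 3048 to 9369 CPM on HFD for WT, and 18114 to 21609 CPM on CD and 12249 to 20975 CPM on HFD for HoipA-KO. Aif1 rose by 1.504 in the 11 libraries, and its log2 difference over 12 was -1.59 (adjusted p = 0.223). Adipocyte markers went the other way, with 9 of 10 lower in HoipA-KO on CD (median -2.08), 10 of 10 on HFD (median -2.04, and 7 over 12 libraries) and summed levels of 13885 to 49279 CPM on CD and 21804 to 29413 CPM on HFD for WT, against 6041 to 9167 CPM and 5436 to 8068 CPM for HoipA-KO.

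Other cells that carry members of the set were looked at in the same way. Mast cells use the beta chain to respond to IL-3, and 7 of 8 of their markers were higher on CD (median 6.89), or 6 over 12 libraries. They summed to 25.5 to 48.0 CPM in WT CD against 578 to 695 in HoipA-KO CD. Higher on CD were also 2 of 4 tested eosinophil markers, 1 of 5 monocyte, 1 of 5 neutrophil, 1 of 5 dendritic cell and 1 of 6 T cell markers and 4 of 8 markers of adipocyte progenitors. Of all genes 18.9% were higher, so the shares of monocyte, neutrophil, dendritic cell and T cell markers were near the background. The dendritic cell marker called was Flt3, which was not called over 12 libraries (adjusted p = 0.145). No B cell, mesothelial or endothelial marker was higher. Lower were 2 of 6 endothelial markers (1 over 12 libraries), 1 of 8 epididymis and 8 of 8 germ cell markers, beside 18.8% of all genes. Germ cell markers summed to 19.2 CPM in WT CD replicate 1 and 445 CPM in replicate 2, above every HoipA-KO CD library. All 8 were also lower with HFD in WT, which shares these WT CD libraries, and none was called between genotypes on HFD. How far the germ cell and epididymis calls rest on WT CD replicate 2 was not tested. Eosinophil markers summed to at most 11.01 CPM and neutrophil markers to at most 85.6 CPM in any library. The part of each of these cell types in the levels of the members was not tested.

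**Figure D5:**
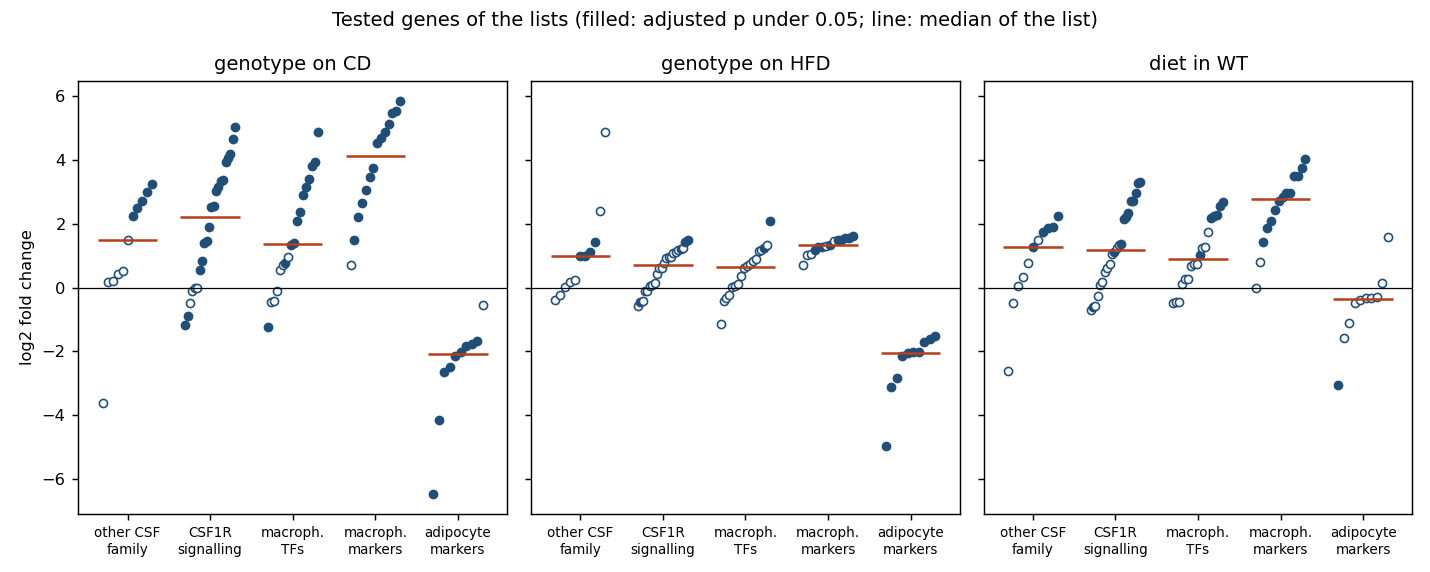
Log2 fold change (vertical axis) of the tested genes of 5 lists in genotype on CD, genotype on HFD and diet in WT, with a point per gene, filled where the adjusted p was under 0.05, and a line at the median of the list. Macrophage markers have medians of 4.14, 1.33 and 2.78, and adipocyte markers lie below 0 in both genotype comparisons.

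Genes with a profile like that of a member were found by the root-mean-square difference of log2(CPM + 1), centred per gene, over the 12 libraries, among 12300 genes with a mean of at least 5 CPM. The value is in log2 units, and smaller is more alike. Csf1 was closest to Bcor (0.11), Acvrl1 (0.11) and Nfatc1 (0.12), and Il34 to Atp10d (0.20), Peg13 (0.21) and Vasn (0.22). Csf1r was closest to Apbb1ip (0.11), Cd48 (0.13) and Daglb (0.14), Adgre1 to Cd180 (0.23), Hpgds (0.24) and Slc15a3 (0.24), and Spi1 to Fermt3 (0.13) and Tbxas1 (0.15). Csf2ra was closest to Selplg (0.15), Amz1 (0.16) and Cd9 (0.16), and Csf2rb to Arpc5 (0.12) and Mfsd1 (0.12). Among the members, Csf1r and Csf2ra were the most alike pair (0.25), Csf2rb was nearer to Csf1 (0.45) than to Csf2ra (0.64) or Csf1r (0.71), and Il34 was farthest from Adgre1 (2.38).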

How the data were processed

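Bulk RNA of GWAT was sequenced after polyA selection with a stranded TruSeq kit. The submitters' processing notes name Trim Galore 0.6.7, STAR 2.7.10a, Salmon 1.5.2, MultiQC 1.11 and DESeq2 1.38.1. The authors deposited estimated counts per gene from Salmon, not normalized, for all genes and for 21646 protein-coding genes, of which the second table is an alternative here. They also deposited their own comparisons, whose fold changes, p-values, scores and CPM are not used. The methods name a human assembly, whereas the notes name GRCm38 and the identifiers are those of mouse genes. Positions are from GENCODE M21 on GRCm38, where 94.06% of the identifiers were found.

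Counts were rounded and passed through filterByExpr, scaled by TMM and put in 1 edgeR quasi-likelihood model of the 4 groups without a block, over 11 libraries (18427 genes) and over 12 (18074 genes). Adjusted p-values are Benjamini-Hochberg over all genes tested, at 0.05. Log2 fold changes use a prior count of 0.125, and SE and 95% intervals come from the model. CPM are scaled by TMM over all 12 libraries. Nothing says that pools come from separate litters, so p-values measure the spread between pools. The smallest library had 30513500 counts. Tools were R 4.3.3, edgeR 4.0.16, DESeq2 1.42.0, Python 3.11.15 and matplotlib 3.10.9, and the fits were tested on simulated data.

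The members and the 17 gene lists were chosen with earlier results of these data known. Genes named are the members and Csf2rb2, in each of the 3 pathway lists the 2 largest rises and 2 largest falls past the threshold in genotype on CD and the 2 with the highest mean CPM, and the 3 genes with the profile most like each member's. Some genes that this rule names are not reported here. Alternatives were DESeq2's size factors, library size alone, no filter, at least 10 counts in every library, DESeq2's Wald test, all 12 libraries, only the 2 groups compared, a replicate block, protein-coding genes, a threshold of 0.01, each library left out, both beta chain genes summed, and CPM by library size.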

Additional observations from a re-analysis of the deposited data

Results flagged for a closer look

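The genotype effect was smaller on HFD than on CD by the test of the interaction in edgeR for 4 members and for Csf2rb2, and these results are given for a closer look because 2 diets gave different effects of the same contrast. The log2 difference was -2.52 for Csf1r, -4.00 for Adgre1, -3.28 for Spi1, -2.42 for Csf2ra and -2.001 for Csf2rb2 (adjusted p = 0.0281). In WT CD, which enters only the effect on CD, the fit holds 2 libraries. Both of those libraries also enter the diet comparison in WT, where the same genes rose, and for these genes WT HFD had the largest coefficient of variation between pools. The calls were lost in 7 to 8 of 11 fits that each left out a library.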

How the results depend on the processing

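On CD the count of 6 members held under every alternative run, apart from 5 without WT CD replicate 2 and 5 at an adjusted p under 0.01, and no member changed direction. The other counts moved. On HFD 3 members were called with library size alone and with DESeq2's Wald test, 2 with the replicate block, 0 over 12 libraries, 0 with only the 2 groups compared, 0 at a threshold of 0.01, and 0 to 3 when a library was left out. With HFD in WT the count was 0 with only those groups in the fit and 3 at 0.01, with 3 to 6 over the left-out libraries. In that comparison DESeq2's Wald test called Csf1 as well (log2 fold change 0.62, adjusted p = 0.027). For HoipA-KO CD against WT HFD the count was 0 at 0.01 and 0 to 4 over the left-out libraries. For the interaction it was 1 with the replicate block, 0 at 0.01 and 0 to 6. Libraries left out take samples from a fit of 11, and where WT CD kept 1 library it was assumed to vary like the other groups. The replicate numbers were not taken to pair the libraries. Of 18 same-numbered pairs, 6 had a correlation of deviations over 0.1 (range -0.395 to 0.383). Differently numbered pairs of different groups ranged from -0.422 to 0.421, and a batch shared by number was not tested. The block changed the counts to 4 with HFD in WT, where Csf2rb was not called (adjusted p = 0.0798). With the block Csf2rb was not called for HoipA-KO CD against WT HFD either (0.0554), nor were the interactions of Csf1r (0.0689), Adgre1 (0.0571) and Csf2ra (0.0574). Directions turned only for differences that were not called. With library size alone, diet in HoipA-KO gave 0.022 for Csf1 and 0.0034 for Csf1r. Over left-out libraries it gave -0.17 to 0.000406 for Csf1, -0.26 to 0.10 for Csf1r, -0.061 to 0.46 for Adgre1 and -0.30 to 0.029 for Csf2rb2, and Il34 gave -0.55 to 0.35 with HFD in WT and -0.69 to 0.21 for the interaction. With counts of both beta chain genes summed, the interaction was called (-1.49, adjusted p = 0.0485). CPM by library size moved no group mean by more than 1 SD. Including WT CD replicate 3 moved the median log2 fold change of all genes on CD from -0.06 to -0.21. Called genes higher in HoipA-KO on CD numbered 3491 in the 11 libraries and 2812 in 12, and on HFD 774 and 96, with 2216 by DESeq2's Wald test. The cause of these changes was not tested. Depth limits only genes near the floor, such as Csf2.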
